A study of Homo sapiens with 5 samples.

Results

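The erythroid microRNAs described here are hsa-miR-144, hsa-miR-451 and hsa-miR-486-3p, measured in 5 human blood cell lines. They were taken by name from the human probes of the panel, with star forms left out, and 3 of the 753 probes on the panel met that rule. The files hold no probe named hsa-miR-486-5p, so only the 3p arm of miR-486 has values. Meg-01 is a megakaryoblastic line, Jurkat a T-lymphoblastic line, Raji a B-lymphoblastic line, U937 a monocytic line and K562 an erythroleukemic line. From each line 100 ng of Trizol-extracted total RNA was read on the nCounter system, which counts barcoded probes without amplification, in 1 sample per line and with no treatment named. Added up over all human probes, Meg-01 gave 109731 counts, K562 105224, Jurkat 130048, U937 94027 and Raji 66892. With no replicates, no line was tested against another, and every interval below is a 95% interval that covers counting error only.

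The MIR144 and MIR451A genes lie side by side and are transcribed together as a common precursor under GATA1, the master transcription factor of red cell development. miR-451 is unusual in that AGO2, not Dicer, cuts its hairpin, so the pair part ways after transcription, and both are abundant in mature red cells. miR-486 is made from within ANK1, the gene of the red cell membrane protein ankyrin, and is also known from muscle.

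The miR-144 probe is listed without an arm, so both mature arms of its hairpin are shown, with the seed, bases 2 to 8, in capitals. The older name without an arm stood for the 3p strand. A matching entry in the RefSeq sequences (GRCh38.p14) was found for 1 of the 3 members, miR-144. The third sequence, miR-101, is shown because it is the only other of 2370 human mature names whose bases 2 to 7 are the ACAGUA of miR-144-3p, and no other name has all 7 seed bases, ACAGUAU.
hsa-miR-144-3p: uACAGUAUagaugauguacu
hsa-miR-144-5p: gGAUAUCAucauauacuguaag
hsa-miR-101-3p: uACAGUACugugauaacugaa
The hairpin of MIR144 lies on the minus strand at chr17:28861533-28861618. It is printed below with the 3p arm in capitals, to show where that arm sits in its own hairpin.
MIR144 hairpin: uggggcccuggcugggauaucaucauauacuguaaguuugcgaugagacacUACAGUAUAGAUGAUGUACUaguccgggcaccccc
In the RefSeq gene table of the same assembly, MIR451A and MIR451B overlap each other and are followed by MIR144 and then by MIR4732, which has no probe here. MIR144 and MIR451A both lie inside the noncoding gene LOC124903966, and the genes around the group are ERAL1 and FLOT2. MIR486-1 overlaps MIR486-2 and lies within ANK1.

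At the threshold used here, Meg-01 and K562 carried all of these microRNAs above background, and Jurkat, Raji and U937 carried none of them above it. For miR-451 this held under each of 5 other thresholds, while under 4 of them miR-144 and miR-486-3p also passed in Jurkat or in Jurkat and Raji. Background was read from 8 negative control probes, which match no human RNA, and a probe was called above background when its raw count passed their mean plus 2 SD in the same line. Meg-01 had a threshold of 42.1 counts, K562 of 34.6, Raji of 45.9, Jurkat of 35.0 and U937 of 34.9. In Meg-01 3 of 3 members passed it, against 27.2% of all human probes, and in K562 3 of 3 passed, against 27.5%. In Jurkat 0 of 3 passed, where 35% of human probes did, in Raji 0 of 3, where 17% did, and in U937 0 of 3, where 28.3% did. In RNA from a whole culture, fewer cells that make a microRNA and less of it per cell cannot be told apart.

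miR-144, which lowers the stress-response factor NRF2 in red cells, had a raw count of 981 in Meg-01 (95% Poisson interval 921 to 1044), 216 in K562 (188 to 247), 31 in Jurkat (21.1 to 44.0), 25 in Raji (16.2 to 36.9) and 16 in U937 (9.15 to 26.0). Meg-01 stood highest and K562 next, with intervals apart from each other and from the remaining lines, whose intervals overlapped. Over the mean of the negative controls the count was 48.1-fold in Meg-01 and 10.7-fold in K562, against 1.36-fold in Jurkat, 1.08-fold in Raji and 0.766-fold in U937. It made up 0.894% of the human counts of Meg-01, where it ranked 19 among the human probes, and ranked 40 in K562. No negative control reached the miR-144 count in Meg-01, K562 or Jurkat, while 3 of 8 did in Raji and 5 of 8 in U937. The Jurkat count, 31, was therefore above the highest negative control of that line, 30, but under its threshold.

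miR-451, which in red cells restrains the adaptor protein 14-3-3 zeta, had a raw count of 129 in Meg-01 (108 to 153), 59 in K562 (44.9 to 76.1), 19 in Jurkat (11.4 to 29.7), 18 in Raji (10.7 to 28.4) and 13 in U937 (6.92 to 22.2). The order of the lines was that of miR-144, with Meg-01 and K562 apart and the other 3 lines overlapping. Over the negative control mean this was 6.33-fold in Meg-01 and 2.91-fold in K562, and in Jurkat, Raji and U937 the count was below that mean, at 0.835, 0.778 and 0.623 of it. The probe ranked 70 in Meg-01 and 93 in K562. In K562 the count was 1.70 times the threshold, and the lower bound of its interval, 44.9, was still above the threshold of 34.6.

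miR-486-3p comes from the arm opposite miR-486-5p, the strand usually described in red cells. Its raw count was 138 in Meg-01 (116 to 163), 143 in K562 (121 to 168), 31 in Jurkat (21.1 to 44.0), 35 in Raji (24.4 to 48.7) and 16 in U937 (9.15 to 26.0). Here Meg-01 and K562 had like counts with overlapping intervals, unlike for miR-144 and miR-451, and Jurkat and Raji came next. The count was 6.77-fold the negative control mean in Meg-01 and 7.06-fold in K562, against 1.36 in Jurkat, 1.51 in Raji and 0.766 in U937. In K562 miR-486-3p ranked 49 and miR-451 ranked 93, whereas in Meg-01 they ranked 68 and 70.

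**Figure D1:**
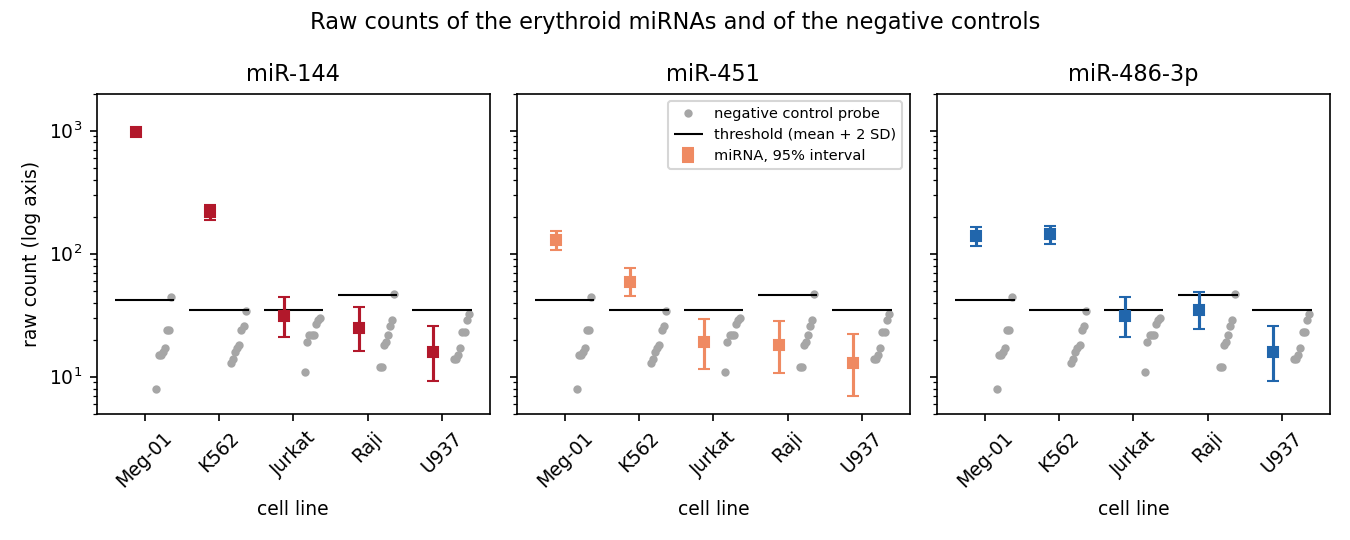
Raw counts (log axis) of miR-144, miR-451 and miR-486-3p in each line, as squares with 95% Poisson intervals, beside the 8 negative control probes (grey) and the threshold of the line (black bar, their mean plus 2 SD). All squares of Meg-01 and K562 are above the bar, from 59 for miR-451 in K562 to 981 for miR-144 in Meg-01, and those of Jurkat, Raji and U937 are below it.

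The positive controls, synthetic RNAs added at known levels, place these counts on the working range of the assay. In Meg-01 the control labelled 8 gave 736 counts and the one labelled 32 gave 3649, so miR-144 lay between them, and miR-451 and miR-486-3p lay between the control labelled 0.5, at 59, and the one labelled 2, at 234. In K562 miR-144, at 216, was next to the control labelled 2, at 205, and miR-451, at 59, was next to the control labelled 0.5, at 45. The controls and the microRNA probes are not calibrated against each other, so these are positions among counts and not amounts.

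The pattern of being above background in Meg-01 and K562 and in no other line was rare on the panel. It held for 3 of 3 members and for 7 human probes in all, or 1.07% of them. This division of the lines is the one given by the members' own calls. That all members have the pattern is therefore a description of them and not a test. The other 4 of the 7 probes were miR-99b, miR-1974, miR-630 and miR-548o. miR-99b, a microRNA of the miR-100 family, gave 118 in Meg-01 and 98 in K562, with 26, 30 and 30 in Jurkat, Raji and U937. miR-1974, a name since withdrawn as a tRNA fragment, had 56 and 181 against 35, 31 and 28. Its Jurkat count of 35 was just under the threshold of that line, 35.02. miR-630 had 45 in Meg-01, close to the threshold of 42.1, and 65 in K562, and miR-548o had 47 and 37, close to the thresholds of 42.1 and 34.6. Among the members, the call depends on where the threshold lies for the Jurkat and Raji counts of miR-144 and miR-486-3p. With the highest negative control as threshold, miR-144 and miR-486-3p were each above it in 3 lines, Jurkat included, and 1 of 3 members, miR-451, kept the pattern among 3 probes in all. The same 1 of 3 kept it with the negative control mean, a raw count of 20 or a raw count of 30 as threshold, so in 4 of the 5 other thresholds only miR-451 had the pattern. In the remaining one, with the lower Poisson bound of the count required to pass the mean plus 2 SD, 3 of 3 members kept it among 6 probes.

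To compare levels between lines, counts were scaled so that the geometric mean of the 100 highest microRNAs was equal, and Meg-01 was multiplied by 0.741, K562 by 1.22, Jurkat by 0.805, U937 by 1.04 and Raji by 1.58. For each probe the smaller value of Meg-01 and K562 was then divided by the highest of Jurkat, Raji and U937, before any subtraction. miR-144 was 264 normalized counts in K562, the lower of the pair, and 39.5 in Raji, the highest of the other lines. This is a 6.69-fold difference (exact conditional binomial interval 4.41 to 10.6), or 2.74 on the log2 scale. For miR-451 the values were 72.2 in K562 and 28.4 in Raji, 2.54-fold (1.48 to 4.57), log2 1.34. For miR-486-3p they were 102 in Meg-01 and 55.3 in Raji, 1.85-fold (1.27 to 2.77), log2 0.89. Each Raji value is a count not above background multiplied by the largest factor, so these folds, and the ranks drawn from them, measure the gap to a floor and not to a level of the microRNA.

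By this measure 2 of 3 members were past 2-fold, as were 6 human probes in all, or 0.917% of them. The measure uses the division of the lines given by the members' own calls, so the members' place in it is also no test. miR-144 ranked 2, miR-451 ranked 5 and miR-486-3p ranked 7 among the human probes. Over the 6 scalings miR-144 ranked 1 or 2, miR-451 from 3 to 8 and miR-486-3p from 4 to 7. The only probe above miR-144 was miR-126, a microRNA of progenitors and megakaryocytes, at 14.5-fold (11.8 to 17.9). Between miR-144 and miR-451 were miR-125a-5p, at 3.86-fold, and miR-1274a, at 3.64-fold, a name since withdrawn as a tRNA fragment. The median of all human probes was -1.09 on the log2 scale. Many of these probes were above background in no line. Their values largely follow the scaling factors, 0.741 in Meg-01 and 1.58 in Raji. The median is therefore not a baseline of equal levels. The count of members depends on the scaling, since 3 of 3 were past 2-fold in 4 of the 6 scalings and 2 of 3 in the pair that use the 100 highest microRNAs. In those 4, miR-486-3p stood on the log2 scale at 1.98 without scaling, 1.79 with the positive controls, 1.51 with the housekeeping probes and 1.27 with the total count, and from 8 to 9 human probes were past 2-fold.

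**Figure D2:**
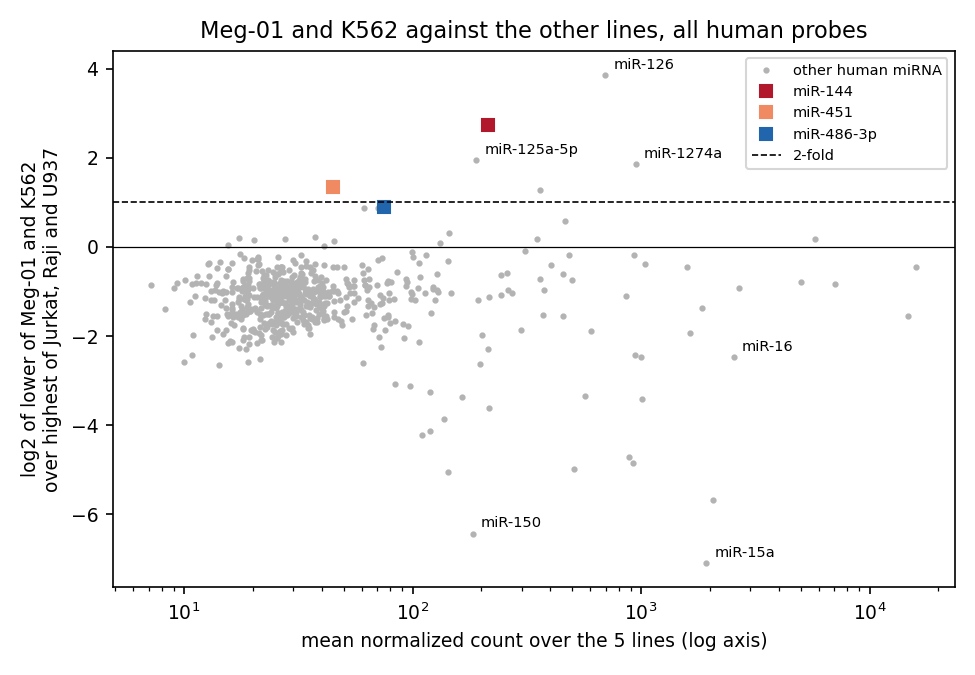
For each human probe, the log2 of the lower of Meg-01 and K562 over the highest of Jurkat, Raji and U937 (normalized counts) against its mean normalized count over the 5 lines (log axis), with 1 probe of 0 counts in K562 not drawn. The colored squares mark miR-144 at 2.74, miR-451 at 1.34 and miR-486-3p at 0.89, near the top of a cloud whose median is -1.09. That median is set largely by scaled background counts.

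Between Meg-01 and K562, miR-144 was higher in Meg-01, the megakaryoblastic line, and miR-486-3p was not. After scaling and subtraction of the threshold, miR-144 was 696 in Meg-01 and 222 in K562, a log2 ratio of 1.65 (approximate interval 1.40 to 1.90). The same values for miR-451 were 64.4 and 29.8, a log2 ratio of 1.11 (0.15 to 2.08). For miR-486-3p they were 71.1 and 132.5, a log2 ratio of -0.90 (-1.36 to -0.43). The scaling itself lowered Meg-01 against K562 by 0.72, and after it the median log2 ratio of the 133 probes above background in both lines, before subtraction, was -0.52. In raw counts that median was 0.20. Relative to it, the log2 ratio of raw counts, which does not depend on the scaling, was 1.98 for miR-144 (1.76 to 2.20), 0.92 for miR-451 (0.47 to 1.39) and -0.26 for miR-486-3p (-0.60 to 0.09). Among those 133 probes, from the highest ratio down, miR-144 ranked 7, miR-451 ranked 22 and miR-486-3p ranked 93.

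These directions were computed for 19 combinations of scaling and subtraction. miR-144 was higher in Meg-01 in 19 of 19, from 0.98 to 2.37 on the log2 scale. miR-451 was higher in Meg-01 in 18 of 19, up to 1.83, and turned to -0.07 when counts were scaled to the housekeeping probes with nothing subtracted. Its intervals included 0 with the housekeeping probes under each subtraction, and with the 100 highest microRNAs by mean over the lines when nothing was subtracted. With the 100 highest chosen in each line and nothing subtracted, the interval was 0.09 to 0.98. miR-486-3p was lower in Meg-01 in 19 of 19, from -1.38 to -0.03, but many of these differences were within counting error. Its intervals included 0 under each subtraction for raw counts and for scaling to the total count or the positive controls. They also included 0 in deposited signals, at -0.43 to 0.37.

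**Figure D3:**
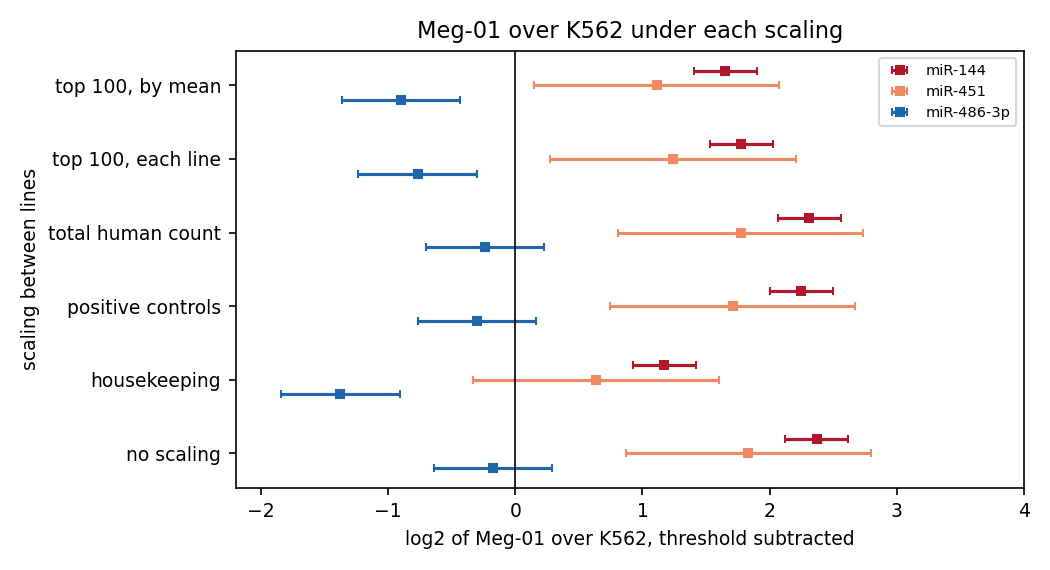
The log2 ratio of Meg-01 over K562 after subtraction of the threshold, with approximate 95% intervals, for miR-144, miR-451 and miR-486-3p under 6 ways of scaling the lines to each other. miR-144 lies right of 0 in each, from 1.17 with the housekeeping probes to 2.37 without scaling, miR-451 lies right of 0 in each, with an interval that crosses 0 with the housekeeping probes, and miR-486-3p lies left of 0 in each, with intervals that cross 0 in 3 of the 6.

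The ratio of miR-144 to miR-451 within a line needs no scaling between lines. Probes differ in how well they catch their targets, so the ratio is not one of molecules, but a fixed difference between probes cancels when the ratio is compared between lines. The ratio of raw counts was 7.60 in Meg-01 (exact interval 6.32 to 9.21) and 3.66 in K562 (2.73 to 4.97). In Jurkat it was 1.63 (0.893 to 3.06), in Raji 1.39 (0.728 to 2.70) and in U937 1.23 (0.555 to 2.78), where both counts were at background and the ratio describes the probes' background only. With the mean of the negative controls subtracted, the ratio was 8.84 in Meg-01 (7.14 to 11.0) and 5.05 in K562 (3.33 to 7.65). With the threshold subtracted, it was 10.8 in Meg-01 (8.29 to 14.1) and 7.44 in K562 (3.93 to 14.1). Both lines had several times more counts of miR-144 than of miR-451 under each of these.

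How far the ratio differed between Meg-01 and K562 depended on the background removed. Meg-01 over K562 in this ratio was 2.08 in raw counts (exact conditional interval 1.45 to 2.95), 1.75 with the negative control mean subtracted (1.10 to 2.79) and 1.45 with the threshold subtracted (0.728 to 2.90). The last interval includes 1, so with the threshold subtracted a difference was not detectable at this depth. With each probe's own mean count in Jurkat, Raji and U937 taken as its background, the value was 1.90 (1.24 to 2.92).

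The ratio of miR-144 to miR-486-3p differed more between the lines. It was 7.11 in raw counts in Meg-01 (5.94 to 8.56) and 1.51 in K562 (1.22 to 1.88), so Meg-01 was 4.71-fold higher (3.53 to 6.26), and 5.85-fold higher with the threshold subtracted (4.06 to 8.43). The ratio of miR-451 to miR-486-3p was 0.935 in raw counts in Meg-01 (0.730 to 1.20) and 0.413 in K562 (0.299 to 0.563), a 2.27-fold difference (1.51 to 3.40), and 4.03-fold with the threshold subtracted (1.92 to 8.47). Against miR-486-3p, both microRNAs of the MIR144 and MIR451A precursor were thus higher in Meg-01 than in K562. These ratios to miR-486-3p were chosen after its values were seen.

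**Figure D4:**
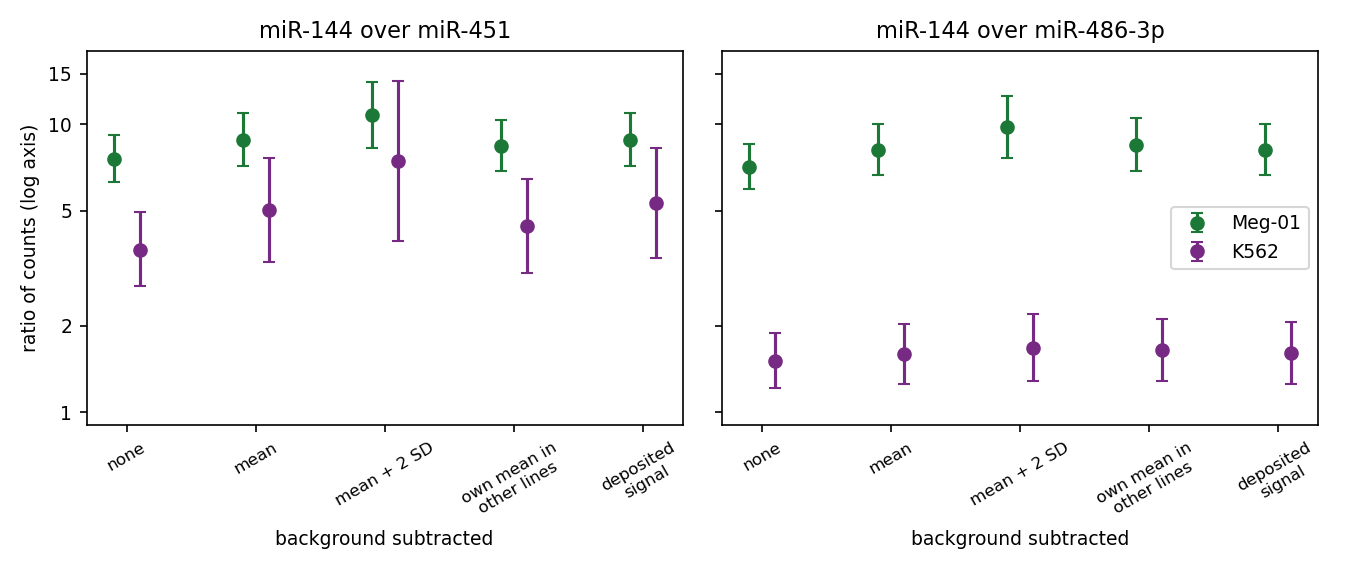
Ratio of miR-144 to miR-451 (left) and to miR-486-3p (right) on a log axis, in Meg-01 (green) and K562 (purple), with 95% intervals, under 5 choices of background. On the left the intervals are apart without subtraction, 7.60 against 3.66, and overlap with the threshold subtracted, 10.8 against 7.44, while on the right they are apart in all 5.

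Likeness of pattern was measured by the Pearson correlation, over 5 lines only, of the log2 count over the negative control mean, among the 307 other human probes above background in at least 1 line. It is a description of 5 points in which Meg-01 and K562 set the range. By it the probe most like miR-144 was miR-451, and the probe most like miR-451 was miR-144. The next 4 for miR-144 were miR-518f, miR-548g, miR-934 and miR-655, and for miR-451 they were miR-548g, miR-518f, miR-934 and miR-99b. The measure ignores how far a probe moves: the highest count of miR-518f was 1.31 times its lowest, against 61.3 times for miR-144 and 9.92 times for miR-451. The lowest counts of miR-144 and miR-451, in U937, were not above background, so their folds measure the gap to a floor. The 5 probes most like miR-486-3p were miR-125a-3p, miR-720, miR-452, miR-1915 and miR-1274a, with neither miR-144 nor miR-451 among them. Among these, miR-125a-3p, miR-452 and miR-1915 were above background in K562 alone, and their lower Poisson bounds there did not pass the threshold. On normalized counts and by the distance described next, miR-451 was among the 5 nearest miR-486-3p. Of these miR-720, which like miR-1274a is a withdrawn name for a tRNA fragment, stood at 7308 in Meg-01 and 12331 in K562, with 2469, 3017 and 1382 in Jurkat, Raji and U937.

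With a distance that counts the size of the moves, the probes nearest miR-144 were miR-126, miR-451 and miR-486-3p, then miR-1274a and miR-377, and those nearest miR-451 were miR-486-3p, miR-99b, miR-382, miR-720 and miR-487b, so miR-144 was not among the 5 nearest miR-451 by this measure. On normalized counts, miR-101 came right after the partner probe for both miR-144 and miR-451. miR-101, which shares 6 seed bases with miR-144-3p as printed above, stood at 279 in Meg-01, 118 in K562, 109 in Jurkat, 86 in Raji and 79 in U937. It was thus above background in all 5 lines, with its highest count in the line where miR-144 was highest.

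Other microRNAs known from red cell development were read beside the members. A list of 6 reported to rise or be abundant in erythroid maturation was miR-15a, miR-16, miR-22, miR-96, miR-210 and miR-363, and 0 of 6 were above background in Meg-01 and K562 alone, against 7 human probes overall. With the lower Poisson bound required to pass the threshold, 1 of 6, miR-22, had that pattern, since its Jurkat count no longer passed. It was then 1 of 6 human probes in all with the pattern. None of the 6 was past 2-fold higher in the lower of Meg-01 and K562, where 0.917% of all human probes were. Beside such small shares, counts of 0 of 6 do not set the list apart from the panel. In the opposite direction 2 of 6 were past 2-fold, where 1.38% of all human probes were. These were miR-15a and miR-16, which come from a common precursor at DLEU2, at 2.40-fold and 2.03-fold. The call depends on the scaling. In raw counts they were at 1.86-fold and 1.71-fold. They were at 1.95-fold and 1.79-fold with the positive controls, and at 1.12-fold and 1.03-fold with the housekeeping probes. Under these 0 of 6 were past 2-fold, against 0.612%, 0.765% and 0.765% of all human probes in the same order. With the total count they were at 2.92-fold and 2.49-fold. With the 100 highest microRNAs chosen in each line they were at 2.47-fold and 2.14-fold. In both of these scalings 2 of 6 were past 2-fold, against 1.38% of all human probes. The miR-15a count was 30 in Meg-01, under the threshold, and 860 in K562, against 3746 in Jurkat, 1599 in Raji and 2902 in U937. The miR-16 count was 895 in Meg-01 and 1308 in K562, against 4025, 2234 and 3512. Meg-01, the line with the most miR-144 and miR-451, was thus the lowest in both. miR-22 was above background in Meg-01, at 67, and in K562, at 116, and also in Jurkat, at 44. miR-96 was above it in all 5 lines, from 283 in Raji to 1549 in K562. miR-210 was above it in no line, with counts from 15 to 35, and miR-363 was above it only in Jurkat, at 732. Between the pair, 0 of 6 of this list were higher in Meg-01 than in K562 under any of the 6 scalings. The share of all human probes was 18.2% in normalized counts, 61.3% in raw counts and 9.33% with the housekeeping probes. It thus follows the scaling, and beside the lower shares a count of 0 of 6 does not set the list apart. miR-210 and miR-363 were under the threshold in both lines, and miR-15a in Meg-01. For the lower of Meg-01 and K562 over the highest of Jurkat, Raji and U937, the median of the list was -1.82 on the log2 scale. That median was -1.09 over all human probes and 1.34 for the members. The value over all human probes is set largely by scaled background counts, so it is not a baseline of equal levels.

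A second list held 6 microRNAs reported to fall as red cells mature, miR-24, miR-150, miR-155, miR-221, miR-222 and miR-223. Of these 0 of 6 were past 2-fold in either direction, where 0.917% of all human probes were past it upward and 1.38% downward, so the count does not set the list apart from the panel. Its median was -1.91, against -1.09 over all human probes, a value set largely by scaled background counts. In normalized counts 5 of 6 were higher in Meg-01 than in K562, and in raw counts also 5 of 6, beside the same shares of all human probes as for the first list, while with the housekeeping probes as the scale 3 of 6 were, against 9.33% of all, with miR-222 and miR-223 turning. miR-221, which lowers the KIT receptor in erythroid cells, stood at 568 in Meg-01 and 62 in K562, with 220 in Jurkat, 355 in U937 and 17 in Raji. miR-24 had 1063 in Meg-01 and 196 in K562, and 130, 27 and 663 in Jurkat, Raji and U937. miR-155 had 121 in Meg-01 and 32 in K562, under the threshold there, and 36, 254 and 253 in Jurkat, Raji and U937. miR-222 had 66 in Meg-01 and 29 in K562, also under the threshold there, and 67, 46 and 98 in Jurkat, Raji and U937. For miR-155 and miR-222 the comparison of Meg-01 with K562 is thus one with a background count. miR-223, a myeloid microRNA, had 3269 in Meg-01 and 1684 in K562, and 2682 in U937, 732 in Jurkat and 62 in Raji. miR-150, of mature lymphocytes, was above background only in Jurkat, at 1030. Of this list 5 of 6 were above background in Meg-01, 3 of 6 in K562, 6 of 6 in Jurkat, 5 of 6 in U937 and 3 of 6 in Raji, where the shares of all human probes were 27.2%, 27.5%, 35%, 28.3% and 17% in that order. The calls of miR-155 in Jurkat, at 36 against a threshold of 35.0, and of miR-222 in Raji, at 46 against 45.9, were marginal. Their lower Poisson bounds did not pass the threshold.

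**Figure D5:**
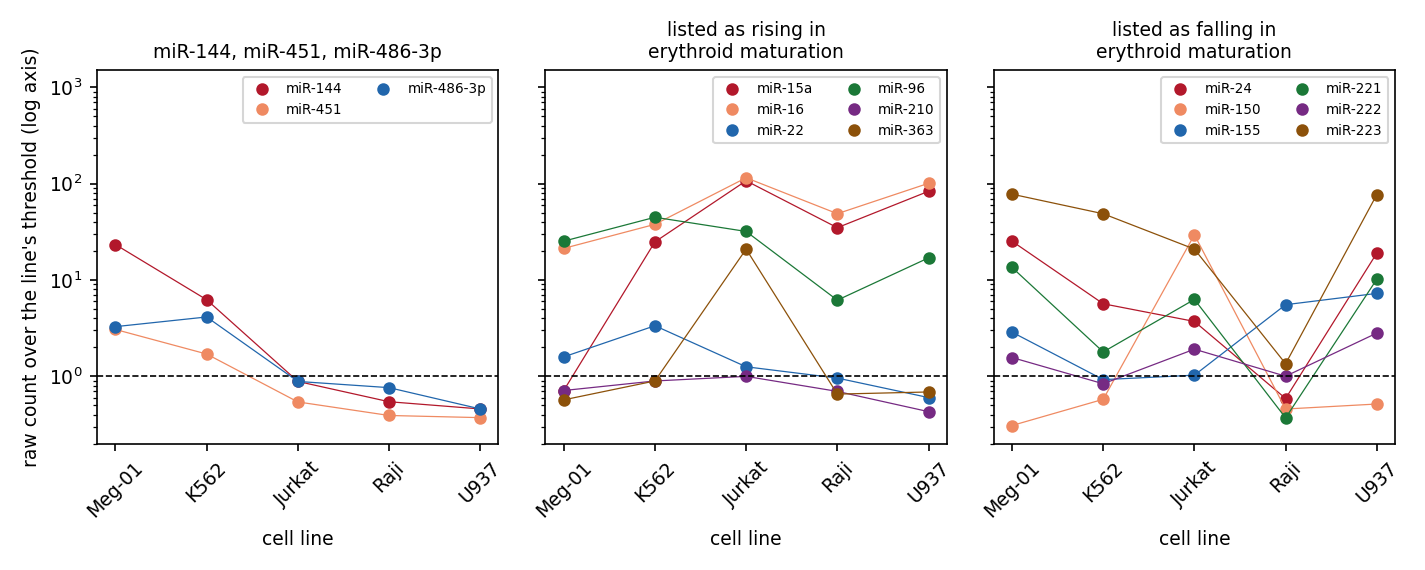
Raw count over the threshold of the line (log axis, dashed line at 1) for miR-144, miR-451 and miR-486-3p (left), for the 6 microRNAs listed as rising in erythroid maturation (middle) and for the 6 listed as falling (right), with thin lines that join the values of each microRNA. On the left all values of Meg-01 and K562 are above the dashed line and the rest below it, while miR-15a and miR-16 in the middle are lowest in Meg-01.

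Markers of other blood cells were read in the same samples. The blood cell microRNA miR-142-3p was high in all 5 lines, from 7436 counts in K562 to 32907 in Jurkat. miR-126, of the megakaryocytic side, stood at 1954 in Meg-01 and 1482 in K562, with 99 in Jurkat, 96 in U937 and 31 in Raji. Like the members it was highest in Meg-01 and K562, but it was also above background in Jurkat and U937. Its normalized count was higher in K562, at 1812, than in Meg-01, at 1449, opposite to miR-144 and miR-451. The other megakaryocytic and progenitor markers read, miR-10a and miR-130a, did not divide the lines in this way. miR-10a was above background in all 5 lines and highest in K562, at 239, and miR-130a had 10 counts or fewer in each line and was above background in none. The Epstein-Barr virus probes BHRF1-2 and BART8 were above background in Raji alone, at 296 and 155. What part a mixture of cell states within Meg-01 or K562 had in these values was not tested.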

How the data were processed

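Per the labels, total RNA of 5 cell lines was read with 1 sample per line. The authors deposited the raw counts of each probe, not normalized, and a table of background-subtracted signal, in which each deposited signal is the raw count less 1 fixed number for the line and never below 0. The raw counts were used throughout, and the deposited signal only as an alternative. Scaling made the geometric mean of 100 miRNAs, those highest by mean over the lines, equal in every line. A line's threshold lay 2 SD above the mean of its 8 negative controls. Intervals are exact Poisson for a count, exact conditional binomial for a ratio of counts, exact conditional for a ratio of ratios of raw counts, and approximate on the log scale for subtracted values, with the background held fixed. Probes named are the members, those that share their pattern of calls, the 5 most like each member, 2 lists of 6 and the cell markers. miR-101, miR-125a-5p, miR-377, miR-382, miR-487b and the positive controls were named after their values were seen. The members and lists were chosen with earlier results of these data known. The division into Meg-01 and K562 against the other lines is the one given by the members' own calls. Sequences came from RefSeq. Calculations used Python 3.11.15, NumPy 2.4.6, SciPy 1.17.1 and Matplotlib 3.10.9 and were checked on simulated counts.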

Additional observations from a re-analysis of the deposited data

How the results depend on the processing

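Of 88 values under other settings, which change 1 choice at a time except that raw count ratios and deposited signals change scaling and background together, 56 stayed within the interval, or within 1.5 times the count, of the reported value, 32 did not, and 0 reversed direction. Outside these 88, with housekeeping scaling and no subtraction together, the log2 ratio of Meg-01 over K562 for miR-451 reversed to -0.07. The log2 ratio of Meg-01 over K562 for miR-144 was 2.37 without scaling, 2.25 with the positive controls, 1.17 with the housekeeping probes, 2.31 with the total count, 2.31 in deposited signals and 2.18 in raw counts. For miR-486-3p it was -0.18, -0.30, -1.38, -0.24, -0.032 and -0.051 in the same order. For the lower of Meg-01 and K562 over the highest of the other lines, the housekeeping probes gave log2 values of 3.52 for miR-144, 2.29 for miR-451 and 1.51 for miR-486-3p, and miR-486-3p had 1.98 without scaling and 1.79 with the positive controls. miR-144 was above background in 4 lines with the negative control mean or a raw count of 20 as threshold, and miR-486-3p in 4 with either of these or a raw count of 30. The probes above background in Meg-01 and K562 alone fell from 7 to 3 with the highest negative control or a raw count of 20. Without subtraction the miR-144 to miR-451 ratio was 7.60 in Meg-01 and 3.66 in K562. Of the 5 probes most like each member, log2 normalized counts shared 1 for miR-144, 2 for miR-451 and 2 for miR-486-3p, and Euclidean distance shared 1 for each. The cause of these shifts was not tested. The ratio of raw counts, the ratios to miR-486-3p and the scalings of the 2 lists were chosen after seeing the data. The settings planned for miR-486-5p gave no value, since the files hold no such probe.

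Depth limits miR-451 most: its K562 count of 59 is 24.4 counts above the threshold, so subtracted values carry wide intervals. In Jurkat, Raji and U937 the members are near the negative controls, and low levels there were not detectable. With 1 sample per line, variation between cultures, RNA preparations or lanes is not known.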

Other observations

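The deposited signal holds values above 0 for the members in lines where the raw count did not pass the mean plus 2 SD. In Jurkat it was 14.75 for miR-144, 2.75 for miR-451 and 14.75 for miR-486-3p, and in Raji it was 1.88 for miR-144 and 11.88 for miR-486-3p. The constant subtracted in the deposited signal was 16.25 in Jurkat, where the negative controls averaged 22.75, and 22.75 in K562, where they averaged 20.25. The K562 constant is thus equal to the Jurkat negative control mean. In Meg-01, Raji and U937 the constant equalled the line's own negative control mean to within rounding.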
